A study of Mus musculus with 9 samples.

Results

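Microglia of *Mcoln1*-/- mice (MLIV) were compared directly with microglia of *Gla* y/- mice (FD) over the autosomal genes, those on chromosomes 1 to 19, in 3 libraries of each mutant. Every autosomal gene with enough counts to be tested was taken, which gave 13498 of the 23248 autosomal genes and of the 24421 genes in the count table. Libraries of 3 control mice (WT) entered no test of MLIV against FD and served to show which of the mutants lay apart from control. Genes on the X and Y chromosomes stayed out of the counts because the libraries differ in sex-linked transcripts.

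The MLIV mice lacked *Mcoln1* and came from crosses of heterozygotes, the FD mice lacked the X-linked gene *Gla* and came from a line kept as homozygotes, and the controls are labelled littermate controls without the line they were littermates of. Strain is given as C57CL6J for all samples and the age as 4 months in the title of the series, while the study's methods describe mice of 2 months. Microglia were sorted from whole brain as CX3CR1+ CD45+ CD11b+ cells, so each value is an average over brain regions and microglial states. The effect of either deleted gene and a difference between the separately kept lines cannot be told apart, and nothing in the labels says that each library was a different mouse, so the p-values measure the spread between these libraries. In such bulk RNA, fewer cells of a type and less RNA per cell cannot be told apart either.

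Library totals were 28781980 to 31079308 counts in FD, 33624404 to 37801159 in MLIV and 22772260 to 37117851 in WT. *Mcoln1* (chromosome 8, 3500519 to 3515231) had 1442, 1227 and 892 counts in FD replicates 1 to 3 and 0, 0 and 18 in MLIV replicates 1 to 3, whereas the WT libraries had 1082, 1517 and 2, so the label of WT replicate 3 does not match its *Mcoln1* level. *Gla* was counted at 4.57 to 4.85 CPM (counts scaled to a common library size with TMM factors) in FD, 11.7 to 17.4 in MLIV and 4.47, 8.20 and 10.8 in WT replicates 1 to 3, so WT replicate 1 lay below every FD library. *Xist*, the transcript of the inactive X chromosome, stood at 1362 to 1530 CPM in FD with 0 to 0.0626 CPM summed over 4 Y-linked genes, against the male genotype that *Gla* y/- names. In MLIV replicates 1, 2 and 3 *Xist* was 1453, 1030 and 4.00 CPM and the Y-linked sum 0, 61.4 and 185 CPM, so the MLIV libraries differ among themselves in sex and replicate 2 carries both signals. The WT replicates 1, 2 and 3 had 4.02, 0.525 and 0.853 CPM of *Xist* and Y-linked sums of 194, 244 and 214 CPM. FD and WT thus differ in sex-linked transcripts throughout, and a departure of FD from control cannot be told apart from a difference in sex. FD replicate 3 had the fewest genes with a count (12032, against 15526 to 20231 in the other 5 mutant libraries) and the lowest correlations with the other libraries (0.871 to 0.900). WT replicate 1 had the lowest total, the most genes with a count (22932) and the largest TMM factor (1.17). Its correlations ran from 0.871 to 0.951. The *Rn45s* ribosomal RNA repeat took 4.38% to 4.69% of the counts in FD and 6.81% to 7.71% in MLIV, and its part in the results was not tested.

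*Mcoln1* encodes TRPML1, a cation channel of the lysosomal membrane, and its loss causes mucolipidosis type IV, a neurodegenerative lysosomal disease. *Gla* encodes the lysosomal enzyme α-galactosidase A, which removes the terminal galactose of globotriaosylceramide, and its loss causes Fabry disease, which mainly affects vessels, kidney, heart and peripheral nerve. Microglia are the macrophages of the brain parenchyma. In many models of neurodegeneration they take on the disease-associated (DAM) state, in which genes of lipid handling, phagocytosis and lysosomal digestion are raised, and some also take on an interferon-response state. The microglial markers *P2ry12*, a purinergic receptor gene, and *Tmem119*, which encodes a membrane protein, were read at high levels in every library. *P2ry12* stood at 1870 to 2322 CPM in FD and 2008 to 2421 CPM in MLIV, and *Tmem119* at 943 to 1832 and 1362 to 1455 CPM. The mutants overlapped in both genes, and neither passed the test (adjusted p = 0.999 and 0.991 by edgeR).

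In the direct comparison MLIV microglia carried higher transcripts of the DAM state, the interferon response, antigen presentation, the lysosome, glycolysis and the cytosolic ribosome, while FD microglia carried higher *Slc1a3*, *Gatm*, *Prkd1*, *Ccr6* and the *Nlrp1* genes. Tests were edgeR's quasi-likelihood tests, adjusted over all genes by the method of Benjamini-Hochberg. Genes that had both an adjusted p under 0.05 and a log2 fold change over 1 in size are termed called. By this rule 347 autosomal genes were called, which is 2.57% of those tested, and 2703 had an unadjusted p below 0.05. Of the 347, 254 were higher in MLIV (1.88%) and 93 lower (0.689%). The libraries of MLIV and FD did not overlap in any of the 347, but among all autosomal genes tested they also did not overlap in 17.5% with MLIV higher and 12.6% with MLIV lower. With library totals in place of the TMM factors the median log2 fold change of all genes moved from 0.02 to -0.09 and the split became 198 higher and 150 lower. Without the fold threshold 669 genes passed the test (4.96%), 464 higher in MLIV (3.44%) and 205 lower (1.52%), and members of gene lists are counted by that rule below, a gene being lost where it no longer passed. The mutants did not overlap in any of the 669 either, so a lack of overlap in a gene that passed is no further support. The median log2 fold change of all autosomal genes, 0.02, stands beside those of the lists. Some genes, such as *Txnip* and *Stab1*, belong to more than 1 list, so the lists are not independent of one another.

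The count of called genes depended on single libraries. It was 571 without FD replicate 3, the library with the fewest detected genes, 212 without MLIV replicate 1 and 205 without MLIV replicate 2. All 347 genes kept their direction in each of these fits. Since the mutants do not overlap in any of them, this was fixed in advance and is no support. With the WT libraries in the fit, whose spread includes the library labelled WT replicate 3, 143 autosomal genes were called, and 422 without that library. Outside the autosomes 14 of 455 genes were called.

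**Figure D1:**
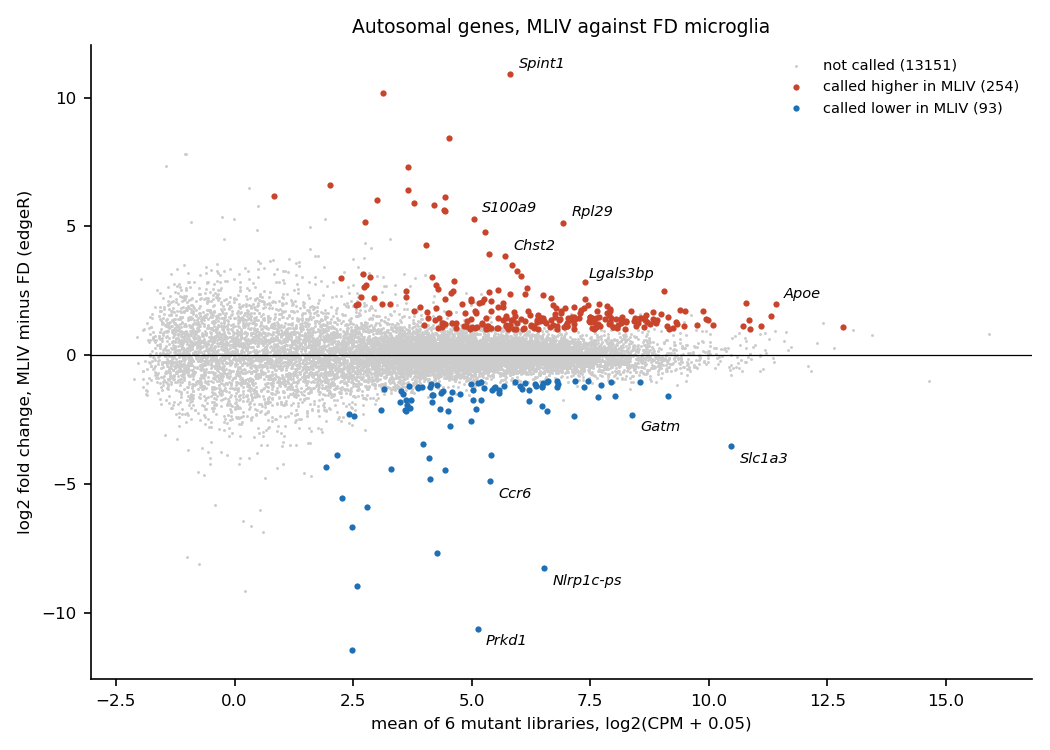
Log2 fold change of MLIV over FD (vertical axis) against the mean level of the 6 mutant libraries as log2(CPM + 0.05) (horizontal axis) for the 13498 autosomal genes tested, with the 254 genes called higher in MLIV in red and the 93 called lower in blue. Most called genes higher in MLIV lie between 1 and 3 at middle and high levels, while *Spint1*, *Prkd1* and *Nlrp1c-ps* lie far out on either side.

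To show which mutant departed from control, the mean log2 CPM of the WT libraries was placed on a scale from the FD mean (0) to the MLIV mean (1) for each called gene. Positions below 0.3 count as near FD, so that MLIV lay farther from control, and positions above 0.7 as near MLIV, so that FD lay farther. Neither class has an outer bound, so both mutants can depart from control within it. With WT replicates 1 and 2 the position was below 0 in 71 of the 254 genes higher in MLIV. It was above 1 in 17 of the 93 genes lower in MLIV. With WT replicates 1 and 2, 180 of the 254 genes higher in MLIV had their control near FD, 54 between and 20 near MLIV, with a median position of 0.14. For the 93 genes lower in MLIV the same libraries lay near FD in 18, between in 41 and near MLIV in 34, with a median of 0.55. The library labelled WT replicate 3 lay near MLIV in 316 of the 347 genes, with a median position of 0.98. With all 3 WT libraries the counts over the 347 genes were therefore 70 near FD, 203 between and 74 near MLIV, against 198, 95 and 54 without replicate 3. Leaving out WT replicate 1 instead gave 13 near FD, 203 between and 131 near MLIV. In 38 genes, 15 higher and 23 lower in MLIV, each of the 3 WT libraries lay near MLIV, and in 1 gene each lay near FD. In 139 genes, 128 higher and 11 lower in MLIV, WT replicates 1 and 2 lay near FD and the library labelled WT replicate 3 near MLIV. As that library lay near MLIV in most genes, few could have all 3 near FD, and the counts of 38 and 1 cannot be compared. These positions are a description without a test, and the WT libraries are placed with the mutant libraries that chose the genes. FD and WT also differ in sex-linked transcripts, and the part of sex in these positions was not tested.

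**Figure D2:**
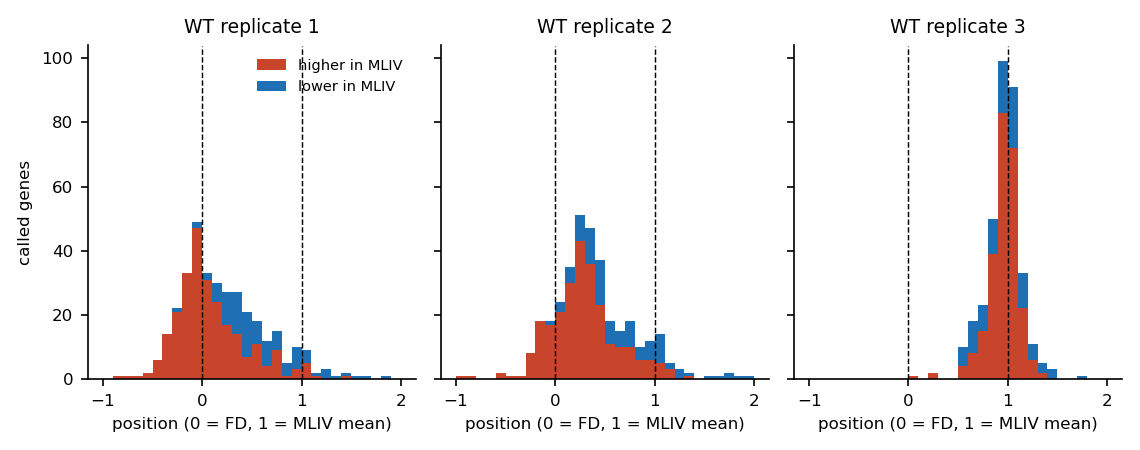
Number of called genes (vertical axis) by the position of each WT library between the FD mean (0, dashed) and the MLIV mean (1, dashed), with positions beyond the axis drawn in the end bins, red for genes higher in MLIV and blue for genes lower. WT replicate 1 peaks near 0 and WT replicate 2 between 0 and 0.5, while the library labelled WT replicate 3 peaks at 1.

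The genes with the smallest p-values included several in which FD alone lay apart. *Spint1* (chromosome 2, 119237360 to 119249513), a membrane-bound inhibitor of serine proteases, had 2, 3 and 0 counts in FD replicates 1 to 3 and 4048, 3568 and 3441 in MLIV replicates 1 to 3. The WT libraries had 1982, 3079 and 4085 counts, so all 6 MLIV and WT libraries carried the transcript and the FD libraries lay at the floor. Summed over libraries and scaled for depth, the MLIV to FD ratio was 2073 with a 95% counting interval of 888 to 6385 (adjusted p = 2.74e-06). Such intervals take counts as independent, but each mate of a read pair was counted, so they are too narrow. *Crabp2*, a carrier of retinoic acid, had 0, 1 and 0 counts in FD, 271, 360 and 1052 in MLIV and 818, 1087 and 348 in WT. Its ratio was 1578 (283 to 62345, adjusted p = 0.000972), and its level varied within MLIV from 7.80 to 32.9 CPM.

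*Rpl29*, a protein of the large ribosomal subunit, reached the smallest p of all genes and was the only 1 of 68 higher ribosomal protein genes with its control near MLIV. Its level was 6.13, 7.11 and 6.72 CPM in FD replicates 1 to 3, 246, 237 and 229 in MLIV and 89.8, 104 and 197 in WT. The FD libraries thus lay below every WT library and the MLIV libraries above every WT library. The log2 fold change was 5.14 ± 0.14 (adjusted p = 7.55e-07). Ribosomal protein genes have many processed copies in the genome, and reads that fit several of them are uncertain.

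*Slc1a3*, the glutamate and aspartate transporter GLAST, was the gene lower in MLIV with the smallest p. It was counted at 2918, 2065 and 2891 CPM in FD, 205, 247 and 234 in MLIV and 137, 224 and 247 in WT. The FD libraries lay above all 6 others, which overlapped each other, and the log2 fold change of MLIV over FD was -3.53 ± 0.17 (adjusted p = 3.48e-05). *Gatm*, the mitochondrial enzyme of the initial step of creatine synthesis, was also highest in FD, with 589, 608 and 476 CPM in FD, 113, 116 and 111 in MLIV and 69.6, 83.3 and 99.6 in WT. Its log2 fold change was -2.31 ± 0.14 (adjusted p = 8.05e-05), and all 3 FD libraries were the high ones. *Slc1a3* is best known as an astrocyte gene. The summed level of 12 other astrocyte markers, among them *Gfap*, *Aqp4* and *Aldh1l1*, was 21.1 to 78.1 CPM in FD and 32.0 to 40.8 in MLIV, and 0 of the 11 tested passed. The part of astrocyte RNA in the *Slc1a3* level was not tested.

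*Prkd1*, a serine/threonine kinase of the protein kinase D family, was read almost only in FD. It had 2053, 1456 and 2900 counts in FD, 0, 2 and 2 in MLIV and 51, 0 and 8 in WT. The FD to MLIV ratio was 1709 with a 95% counting interval of 667 to 6276 (adjusted p = 4.26e-05). *Trim43b*, a member of a TRIM gene family expressed in the early mouse embryo, had 347, 221 and 451 counts in FD and 0 in each MLIV library, at least 76.6-fold lower at a floor of 3 counts per library, and the WT libraries had 48, 2 and 10 counts. The predicted gene *Gm15446* likewise had 374, 154 and 562 counts in FD, 2, 0 and 0 in MLIV and 4, 0 and 2 in WT. *Trim43b* has close copies, so its reads are uncertain.

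The chemokine receptor gene *Ccr6*, whose product binds CCL20, was counted at 96.4, 87.9 and 59.5 CPM in FD, 1.55, 3.20 and 3.50 in MLIV and 3.34, 2.014 and 1.65 in WT. MLIV and WT overlapped and FD lay apart, with a log2 fold change of -4.90 ± 0.35 (adjusted p = 0.000324). The scavenger receptor gene *Colec12* had 74.2, 84.3 and 79.8 CPM in FD and 5.01, 3.42 and 7.76 in MLIV (-3.89 ± 0.30, adjusted p = 0.000373), with WT at 5.45, 1.05 and 11.1. *Cables1*, which encodes a partner of cyclin-dependent kinases, fell less steeply, from 346, 443 and 370.4 CPM in FD to 129, 129.8 and 132 in MLIV (-1.58 ± 0.13, adjusted p = 0.000435). *Neurl1a*, a ubiquitin ligase gene, stood at 146, 151 and 132 CPM in FD and 38.2, 39.9 and 32.2 in MLIV (-1.98 ± 0.14, adjusted p = 0.000324), and all 3 WT libraries lay below the FD libraries for both genes. *Rnf150*, another gene of a RING-finger protein, had 59.9, 52.02 and 56.04 CPM in FD and 16.8, 17.2 and 17.2 in MLIV (-1.73 ± 0.16, adjusted p = 0.000662), but WT replicates spread from 8.15 to 50.4 CPM.

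NLRP1 proteins are sensors that assemble inflammasomes and activate caspase-1. The 3 genes of the mouse *Nlrp1* cluster on chromosome 11 (71091197 to 71285232) were all lower in MLIV. *Nlrp1a* was counted at 35.9, 38.98 and 49.6 CPM in FD and 1.67, 2.07 and 1.94 in MLIV, and *Nlrp1b* at 265, 177 and 274 and 42.7, 40.4 and 55.2. The pseudogene *Nlrp1c-ps* had 183, 135 and 237 CPM in FD and 0.835, 0.753 and 0.188 in MLIV. Their log2 fold changes were -4.46 ± 0.25, -2.38 ± 0.20 and -8.28 ± 0.43, with adjusted p of 6.62e-05, 0.000435 and 4.57e-05. In all 3 genes the WT libraries lay with MLIV, and reads shared between these near copies are uncertain. Among 25 tested genes of the list of NOD-like receptors and inflammasomes 3 were lower in MLIV and 0 higher (median -0.29). The third was *Txnip*, a thioredoxin-binding protein (-0.59 ± 0.11, adjusted p = 0.0156), which was lost without FD replicate 1 or any of the MLIV libraries. Under library totals 8 members were lower, and 8 also without FD replicate 3.

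**Figure D3:**
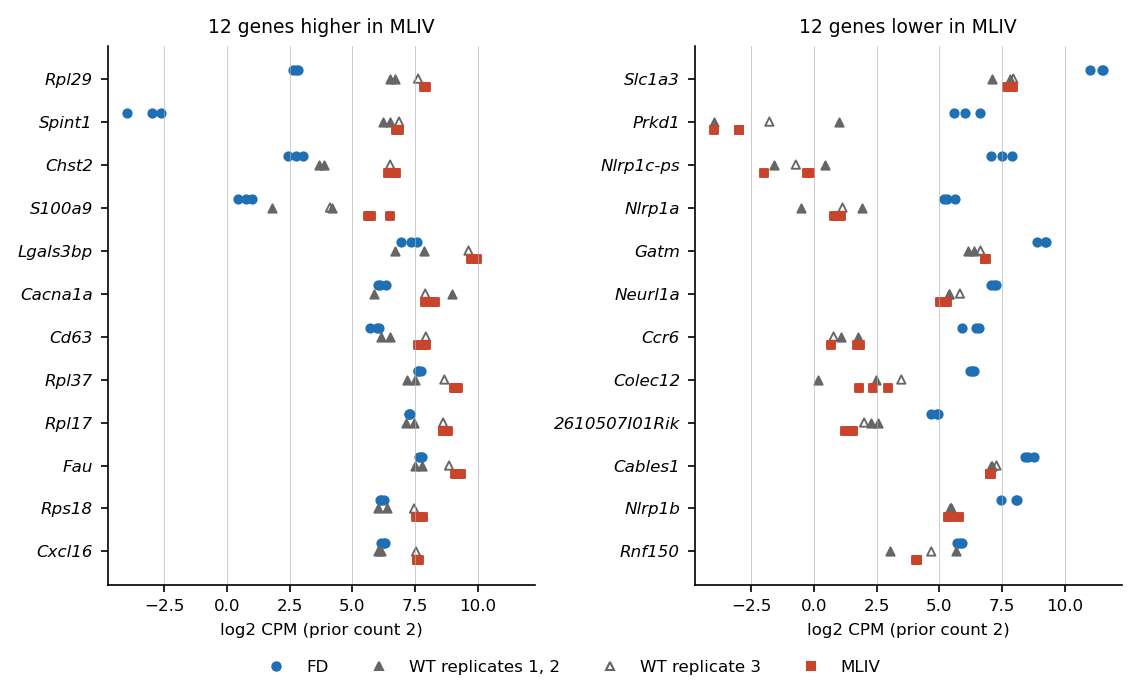
Level of each library as log2 CPM (prior count 2, horizontal axis) for the 12 genes with the smallest p in each direction, with FD as circles, MLIV as squares and WT as triangles, the library labelled WT replicate 3 being the open triangle. In *Spint1*, *Slc1a3*, *Gatm*, *Ccr6* and the *Nlrp1* genes the WT libraries lie with MLIV, and in *Chst2*, *Lgals3bp* and *Cxcl16* WT replicates 1 and 2 lie nearer FD and the open triangle lies with MLIV.

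The 38 genes in which every WT library lay near MLIV included several that lay close together on a chromosome, and those named here for their position were chosen after their values were seen. On chromosome 9, *Atp2c1* (105411362 to 105521257, a Golgi calcium pump, log2 fold change 1.397), *Rpl29* (106429539 to 106431567), *Abhd14b* (106448640 to 106452918, 6.596) and *Mapkapk3* (107254927 to 107289877, a stress kinase, 1.88) were all higher in MLIV. Not all of these lay within 500 kb of each other. *Hemk1* (107327082 to 107338350, -1.24), called but not among the 38, lay beside *Mapkapk3* and was lower in MLIV. On chromosome 17, *Tagap1* (6954965 to 6961156, -1.72) and *Ccr6* (8236043 to 8257129) were lower in MLIV and *Rnaset2b* (6978860 to 8147832, 3.48) was higher. *Rnaset2b* has a near-identical copy, so its reads are uncertain. Its span runs from the lowest to the highest position listed under this symbol and may not be the extent of 1 gene. Its closeness to *Tagap1* and *Ccr6*, and its part in the shares of neighbours below, are therefore uncertain. On chromosome 18, *Colec12* (9707648 to 9877995), *Greb1l* (10325179 to 10562941, -2.19) and *Cables1* (11839274 to 11945627) were all lower in MLIV. Of the 54 called genes with control near MLIV (WT replicates 1 and 2), 55.6% had another called gene within 500 kb, against 39.4% of the 198 with control near FD and 28.4% of all autosomal genes tested. With all 3 WT libraries the shares were 51.4% of 74 genes near MLIV and 47.1% of 70 near FD. Within 1 Mb of *Mcoln1*, 28 other genes were tested, 0 were called, and *Insr* (-0.67, adjusted p = 0.0147) and *Pet100* (0.83, adjusted p = 0.0424) passed the test.

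Genes of the DAM state rose in MLIV relative to FD. Of 36 tested members 27 were higher, 0 were lower and the median log2 fold change was 1.45. Between 19 and 31 were higher when each of the 6 libraries was left out in turn, but only 1 passed in the fit with all 9 libraries. *Apoe*, the main lipid carrier of the brain, was counted at 1344, 748 and 1230.3 CPM in FD and 3726, 4209 and 5128 in MLIV. WT replicates 1 and 2 had 907 and 534 and the library labelled WT replicate 3 had 6785. The lowest MLIV library thus lay above the highest FD library, and the log2 fold change was 1.97 ± 0.22 (adjusted p = 0.00144). *Clec7a*, the β-glucan receptor Dectin-1, had 40.7, 21.7 and 28.2 CPM in FD and 154, 157 and 147 in MLIV (2.32 ± 0.22, adjusted p = 0.000692). *Axl*, a receptor tyrosine kinase that takes up dying cells, had 64.5, 27.3 and 30.5 CPM in FD and 265, 311 and 306 in MLIV (2.84 ± 0.31, adjusted p = 0.00129), and it did not pass without FD replicate 3. FD and MLIV did not overlap in either gene, and WT replicates 1 and 2 had 30.1 and 18.04 CPM of *Clec7a* and 52.5 and 28.02 CPM of *Axl*, inside or below the FD range.

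Further DAM genes covered surface receptors, secreted factors and signalling. *Itgax* (CD11c, an integrin subunit) went from 28.9, 23.3 and 15.7 CPM in FD to 101, 112 and 137 in MLIV (2.35 ± 0.24, adjusted p = 0.00103), and the growth factor *Igf1* from 4.25, 2.54 and 4.77 to 31.2, 36.8 and 28.2 (3.05 ± 0.30, adjusted p = 0.000938). *Spp1* (osteopontin) rose from 8.10, 4.76 and 4.03 CPM to 30.2, 43.6 and 27.1 (2.56 ± 0.34, adjusted p = 0.00338). *Lgals3bp*, a secreted glycoprotein that binds galectin-3 and is also induced by interferon, rose from 193, 161 and 124 CPM to 871, 994 and 848 (2.49 ± 0.18, adjusted p = 0.000324). In all 4 genes the MLIV libraries lay above every FD library. *Tyrobp*, the adaptor DAP12 of TREM2, was higher by 1.19 ± 0.17 and the fatty acid carrier *Fabp5* by 2.72 ± 0.48 (adjusted p = 0.00494 and 0.0150), the latter lost without any one MLIV library. With WT replicates 1 and 2 the control lay near FD in 25 of the 27 and between in 2, and with all 3 WT libraries near FD in 11, between in 15 and near MLIV in 1.

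*Chst2*, a Golgi sulfotransferase that sulfates N-acetylglucosamine, stood apart from the lists. It was counted at 5.32, 6.72 and 7.997 CPM in FD, 99.8, 106 and 84.7 in MLIV and 14.3, 12.5 and 90.7 in WT. MLIV lay more than 10-fold above FD in every library, WT replicates 1 and 2 lay between them, and the log2 fold change was 3.84 ± 0.20 (adjusted p = 4.57e-05). *Cacna1a*, the pore subunit of a neuronal calcium channel, had 69.3, 65.4 and 80.8 CPM in FD and 239, 312 and 289 in MLIV (1.95 ± 0.14, adjusted p = 0.000342), but its WT libraries at 497, 58.6 and 239.6 CPM spanned both mutants. *Cd22*, a sialic acid receptor that restrains phagocytosis by microglia, rose from 24.4, 19.9 and 16.3 CPM to 86.01, 69.1 and 67.5 (1.86 ± 0.20, adjusted p = 0.00122). WT replicates 1 and 2 had 18.4 and 17.3 CPM of *Cd22*, within the FD range.

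Homeostatic microglial genes did not move as a group. Of 28 tested members 2 were higher in MLIV and 2 lower, with a median of -0.09. The cysteine protease inhibitor *Cst3* (0.80 ± 0.14, adjusted p = 0.0168) and the matrix protein *Sparc* (0.62 ± 0.12, adjusted p = 0.0244) were higher. *Upk1b* (-1.23 ± 0.24, adjusted p = 0.0217) and *Txnip* were lower, and each of the 4 was lost without FD replicate 1 and without each MLIV library.

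Interferon-stimulated genes were also higher in MLIV. Of 52 tested members 27 passed as higher, 0 as lower, and the median log2 fold change was 1.46. *Ifit1*, which binds foreign RNA, was counted at 8.57, 5.09 and 3.83 CPM in FD and 32.8, 42.9 and 55.4 in MLIV, with WT replicates 1 and 2 at 5.33 and 4.93 and the library labelled WT replicate 3 at 41.4 (2.89 ± 0.35, adjusted p = 0.00193). *Ifit2*, of the same family, had 29.97, 11.2 and 20.1 CPM in FD and 100.4, 142 and 128 in MLIV (2.59 ± 0.32, adjusted p = 0.00240), and it did not pass without FD replicate 3. *Xaf1*, which promotes apoptosis, had 19.6, 13.96 and 7.43 CPM in FD and 105, 121 and 124 in MLIV (3.08 ± 0.32, adjusted p = 0.00110), with WT replicates 1 and 2 between them at 34.4 and 56.2 CPM. FD and MLIV did not overlap in these 3 genes. The list was among the most dependent on single libraries: 14, 10 and 11 members passed without MLIV replicates 1, 2 and 3, 19 without FD replicate 2, and 1 passed in the fit of 9 libraries.

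Interferon acts on these genes through a promoter element whose core is GAAA repeated with 2 bases between the copies, which is bound by interferon regulatory factors. Promoters from 250 bases before to 50 after the start (RefSeq, GRCm38.p6, the patch series of mm10) were found for 23 of the 27 higher members, and 12 of the 23 (52.2%) held the core on either strand, against 3.73% of the 10594 autosomal genes tested that had a promoter (of 13498). A match describes the letters and does not show a bound site. Among the 25 members that did not pass, 16 had a promoter and 9 of these (56.25%) held the core, a share as high as in the higher members. With a promoter for so few of the 25, and for 10594 of the 13498 genes, these shares are a description and the comparison between them is void. Windows of the core with 20 bases on either side are shown for 5 genes with the element before the start, with the core in capitals and, where it lies on the opposite strand, as its reverse complement:
Ifit1 (chr19:34640784-34640833, plus strand): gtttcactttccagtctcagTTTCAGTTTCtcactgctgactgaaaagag
Ifit3 (chr19:34583387-34583436, plus strand): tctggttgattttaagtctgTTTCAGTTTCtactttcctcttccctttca
Isg15 (chr4:156200861-156200910, minus strand): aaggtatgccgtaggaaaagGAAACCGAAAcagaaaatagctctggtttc
Bst2 (chr8:71537567-71537616, minus strand): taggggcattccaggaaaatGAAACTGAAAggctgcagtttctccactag
Rsad2 (chr12:26456543-26456592, minus strand): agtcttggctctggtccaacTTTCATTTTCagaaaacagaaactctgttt
The core shown begins 85 bases before the start in *Ifit1*, 122 in *Ifit3*, 72 in *Isg15*, 124 in *Bst2* and 120 in *Rsad2*. The log2 fold changes of these genes were 2.89, 3.25, 1.98, 1.70 and 4.28, with adjusted p of 0.00193, 0.00889, 0.0278, 0.0234 and 0.0481. *Ifit3* and *Ifit3b* are near copies with reads that are uncertain between them.

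Genes of MHC class I presentation rose as well. Of 21 tested members 10 were higher in MLIV and 0 lower (median 0.70), and 5 or 6 passed when FD replicate 1, FD replicate 2 or any MLIV library was left out. *B2m*, the shared light chain, went from 830.1, 748 and 496 CPM in FD to 2825, 2764 and 2976 in MLIV (2.03 ± 0.19, adjusted p = 0.000821). The heavy chain genes *H2-K1* (412, 294 and 309 CPM in FD, 1034, 1194 and 1089.7 in MLIV, 1.70 ± 0.15, adjusted p = 0.000634) and *H2-D1* (118, 102 and 67.1 CPM, 344, 375 and 380.3, 1.92 ± 0.20, adjusted p = 0.00118) showed no overlap of the mutants, though these polymorphic genes share sequence and their reads are uncertain. Of 13 class II genes 3 were higher (median 0.45): the protease *Ctss* (0.97 ± 0.12, adjusted p = 0.00207), the thiol reductase *Ifi30* (0.75 ± 0.12, adjusted p = 0.00959) and *H2-Oa* (1.07 ± 0.25, adjusted p = 0.0468). *Ctss* passed without each library, *Ifi30* was lost without MLIV replicate 1 or 2, and *H2-Oa* without FD replicate 2 or any MLIV library. The class II count was 1 without MLIV replicate 1 or 2 and 6 without FD replicate 1.

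Both diseases are lysosomal, and the lysosomal genes differed between the mutants. Of 48 hydrolases and their activators 20 were higher in MLIV and 0 lower (median 0.60). Removing MLIV replicates 1, 2 and 3 gave 10, 8 and 11, and removing FD replicate 1 gave 12. *Ctsl*, a cysteine protease, went from 469, 426 and 429 CPM in FD to 1046, 1000.4 and 909 in MLIV, with WT replicates 1 and 2 at 366 and 545 (1.14 ± 0.11, adjusted p = 0.000938). *Psap*, the precursor of the saposins that help to degrade sphingolipids, went from 1493, 1533 and 1086 to 3327, 3055 and 2781 CPM (1.14 ± 0.16, adjusted p = 0.00486). *Gm2a*, the activator of ganglioside GM2 breakdown, went from 152, 151 and 176 to 370.1, 339 and 316 CPM (1.08 ± 0.12, adjusted p = 0.00122). The libraries of the mutants did not overlap in these 3 genes.

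Further hydrolases were higher as well. *Ctsz* was higher by 0.97 ± 0.11, *Ctsh* by 1.00 ± 0.11 and *Asah1*, the acid ceramidase, by 0.70 ± 0.11 (adjusted p = 0.00144, 0.00151 and 0.00639), the last lost without MLIV replicate 2. *Glb1*, the β-galactosidase, was higher by 1.43 ± 0.21 (adjusted p = 0.00534). Among 25 genes of globoside and glycosphingolipid metabolism, the pathway that *Gla* serves, 6 were higher and 0 lower (median 0.26), all 6 of them degradative enzymes or activators. The count was 3 without MLIV replicate 2.

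In the lysosomal membrane and its proton pump, 8 of 34 tested genes were higher and 0 lower (median 0.47), with 3 higher without any of the MLIV libraries, 5 without FD replicate 1 and 16 without FD replicate 3. The tetraspanin *Cd63* went from 66.7, 52.2 and 63.6 CPM in FD to 244, 227 and 198 in MLIV (1.86 ± 0.14, adjusted p = 0.000363), and *Lamp1*, a main glycoprotein of the lysosomal membrane, from 731, 738 and 515 to 1639, 1562 and 1352 (1.18 ± 0.17, adjusted p = 0.00486). *Npc2*, the soluble carrier of lysosomal cholesterol, went from 212, 208 and 141 to 526, 497 and 499 CPM (1.42 ± 0.17, adjusted p = 0.00185), and these 3 genes showed no overlap. In 31 genes of the MiT/TFE factors, which govern lysosome formation, and of autophagy, 1 was higher (*Gabarap*, 0.94 ± 0.15, adjusted p = 0.00873, lost without MLIV replicate 2) and 0 lower (median 0.27). The core TCACGTGA that these factors bind was found in 3 of the 23 promoters of higher lysosomal genes (13.04%, with 28 such genes in all) in 4 of the 38 of lysosomal genes that did not pass (10.53%, of 54), in 1.03% of those of all genes called higher in MLIV and in 2.09% of all promoters matched. With promoters missing for many genes these shares too are only a description. It lay before the start in these windows, 99 bases away in *Ctsd* (log2 fold change 1.09) and 132 in *Atp6v1a* (0.95), shown because both genes passed the test:
Ctsd (chr7:142387899-142387946, minus strand): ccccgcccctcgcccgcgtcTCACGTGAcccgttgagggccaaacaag
Atp6v1a (chr16:44139364-44139411, minus strand): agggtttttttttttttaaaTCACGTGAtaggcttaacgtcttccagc
Capitals mark the core in each line.

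Handling of lipids had 6 of 21 members higher in MLIV and 0 lower (median 0.95). The 6 were 3 without any of the MLIV libraries and 12 without FD replicate 3. Cholesterol synthesis had 0 of 20 genes past the test in either direction (median 0.49). In glycolysis and the targets of HIF-1, 12 of 29 were higher and 0 lower (median 0.82). *Hif1a*, the oxygen-regulated factor itself, went from 152, 131 and 149.6 CPM in FD to 418, 353 and 381 in MLIV (1.4 ± 0.12, adjusted p = 0.000435). *Pkm*, pyruvate kinase, went from 161, 157 and 139.9 to 489, 402 and 384 CPM (1.46 ± 0.13, adjusted p = 0.000662), and *Tpi1* and *Aldoa* were higher by 1.52 ± 0.15 and 1.27 ± 0.19 (adjusted p = 0.000968 and 0.00567). The mutants did not overlap in these genes, and 5, 5 and 6 members of the list passed without MLIV replicates 1, 2 and 3. In the respiratory chain 17 of 77 genes were higher and 0 lower (median 0.64), among them *Cox6c* (1.42 ± 0.16, adjusted p = 0.00140) and *Cox4i1* (1.11 ± 0.12, adjusted p = 0.00138). That count ran from 3 without MLIV replicate 2 to 40 without FD replicate 3, and was 5 and 8 without MLIV replicates 1 and 3 and 6 without FD replicate 1.

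Cytosolic ribosomal protein genes were the list with the highest share of higher members, 68 of 78 with 0 lower and a median of 1.37. Together they took 0.865% to 0.978% of the counts in FD, 2.06% to 2.35% in MLIV, and 0.951%, 1.10% and 2.10% in WT replicates 1 to 3. *Rpl37* went from 195, 211 and 195 CPM in FD to 585, 556 and 524 in MLIV (1.46 ± 0.11, adjusted p = 0.000373), *Fau* from 214, 219.7 and 202 to 642, 571 and 545 (1.45 ± 0.12, adjusted p = 0.000435) and *Rps18* from 68.95, 71.3 and 75.9 to 223, 205 and 185 (1.49 ± 0.12, adjusted p = 0.000435). Unlike *Rpl29*, these 3 genes had WT replicates 1 and 2 at or below the FD range or just above it, at 146 and 180.4, 183 and 219 and 63.97 and 82.3 CPM. Of 48 translation factors 11 were higher and 0 lower (median 0.30), led by the elongation factor *Eef1a1* (1.37 ± 0.13, adjusted p = 0.000938), and 6 passed without MLIV replicate 1 or 2 and 19 without FD replicate 3. Mitochondrial ribosomal proteins did not share this: 0 of 77 passed (median 0.17).

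**Figure D4:**
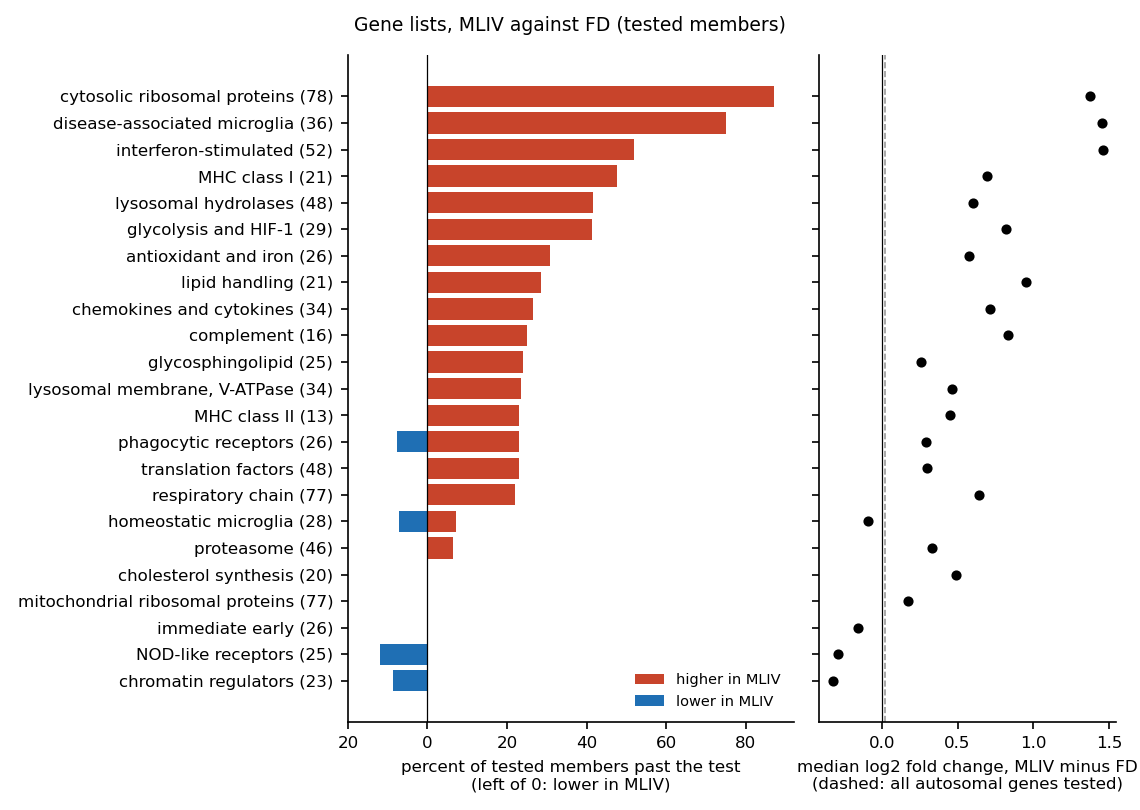
Left, percent of tested list members past edgeR's test at an adjusted p below 0.05, higher in MLIV to the right (red) and lower to the left (blue), with the number tested in brackets. Right, median log2 fold change of the members, the dashed line marking all autosomal genes (0.02). The cytosolic ribosomal proteins, DAM and interferon-stimulated lists lie farthest to the right among the lists drawn. Not drawn are the cell markers, chemokine receptors, MiT/TFE and autophagy, heat shock and unfolded protein, glutamate and creatine, phosphodiesterases and nuclear noncoding RNAs.

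The ribosomal protein genes are short, and length went with the direction of change. The median summed exon length was 1574.5 bases for the 254 genes called higher in MLIV, 3505 for the 93 called lower and 2847.5 for all autosomal genes tested. Without ribosomal protein genes the higher genes had a median of 1963 bases. Over 5 equal groups of genes by length, the median log2 fold change fell from 0.27 in the shortest to -0.12 in the longest, and 125 of the called higher genes lay in the shortest group against 22 in the longest. Only 2 chromatin regulators with long transcripts passed among 23, *Kmt2a* (-0.59 ± 0.12) and *Kmt2d* (-0.50 ± 0.11), both lower in MLIV (adjusted p = 0.0274 and 0.0406) and both lost without FD replicate 1 or any MLIV library. The part of length or RNA quality in the lists above was not tested.

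**Figure D5:**
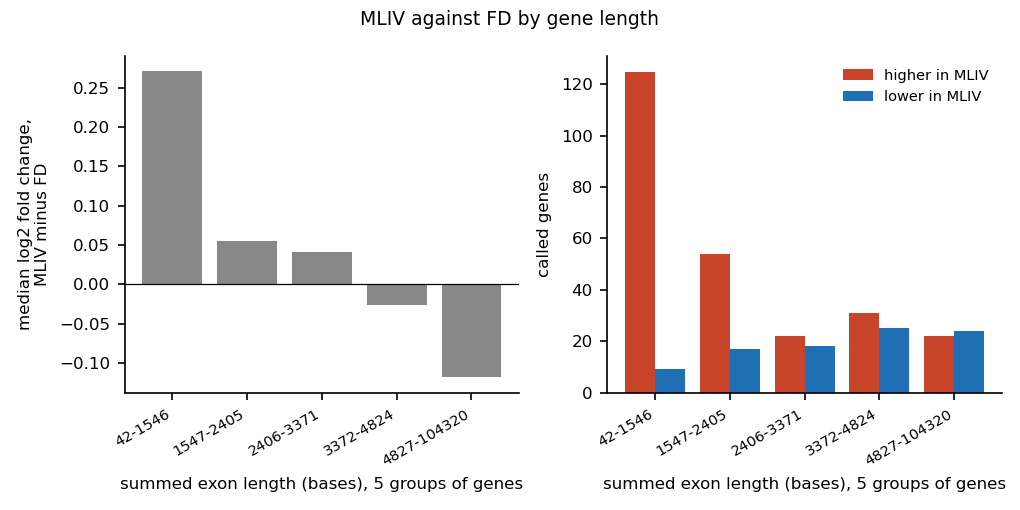
Autosomal genes in 5 equal groups by summed exon length in bases, with the median log2 fold change of MLIV over FD (left) and the number of called genes higher (red) and lower (blue) in MLIV (right). The median falls from 0.27 to -0.12 and the called higher genes from 125 to 22 between the shortest and the longest group.

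Secreted signals and their receptors changed in smaller numbers. Of 34 chemokines, cytokines and growth factors 9 were higher in MLIV and 0 lower (median 0.72), and 4 or 5 passed without any one of the MLIV libraries. The membrane-bound chemokine *Cxcl16* went from 77.8, 70.8 and 77.04 CPM in FD to 191, 202 and 189.6 in MLIV (1.36 ± 0.11, adjusted p = 0.000435), and *Ccl9* was higher by 0.83 ± 0.12 (adjusted p = 0.00511), lost without MLIV replicate 2. Of 17 receptors for chemokines and other chemoattractants, the receptor gene of the complement fragment C3a, *C3ar1* (0.71 ± 0.15, adjusted p = 0.0301), and the chemokine receptor gene *Cxcr4* (3.00 ± 0.68, adjusted p = 0.0409) were higher and *Ccr6* was lower (median 0.00). *C3ar1* was lost without any MLIV library, and *Cxcr4* also without FD replicate 1. Among 16 complement genes 4 were higher and 0 lower (median 0.83). *C3*, the central component, had 7.63, 6.69 and 0.739 CPM in FD and 65.5, 86.8 and 78.6 in MLIV (3.91 ± 0.66, adjusted p = 0.0111), without overlap, but it was lost without FD replicate 1 or MLIV replicate 2 or 3. The complement count was 10 without FD replicate 3, 2 without MLIV replicate 1 and 1 without MLIV replicate 2 or 3.

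Of 26 phagocytic receptors 6 were higher and 2 lower (median 0.29). The lower pair were the inhibitory lectin *Siglece* (69.1, 79.9 and 85.3 CPM in FD, 42.1, 40.9 and 37.9 in MLIV, -0.97 ± 0.14, adjusted p = 0.00572) and the scavenger receptor *Stab1* (-0.73 ± 0.13, adjusted p = 0.0150), and *Stab1* was lost without MLIV replicate 2 or 3. The higher count was 3 when any one of the MLIV libraries was left out. Among 26 antioxidant and iron genes 8 were higher and 0 lower (median 0.58). The ferritin heavy chain *Fth1* went from 562, 638 and 482 to 1549.8, 1469 and 1402 CPM (1.38 ± 0.14, adjusted p = 0.000968) and the peroxidase *Prdx1* from 33.3, 33.2 and 27.8 to 93.2, 71.8 and 82.96 (1.38 ± 0.16, adjusted p = 0.00182), with no overlap. That count fell to 2 without FD replicate 1 or any of the MLIV libraries and rose to 14 without FD replicate 3.

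Several lists hardly moved. Of 26 immediate early genes, which respond to handling of cells, 0 passed (median -0.15), and of 28 heat shock and unfolded protein genes *Hspa8* alone did (1.12 ± 0.23, adjusted p = 0.0274, lost without any library but FD replicate 2). Of 46 proteasome genes 3 were higher (median 0.33), *Psme1*, *Psmb1* and *Psmb8*, and 0 to 1 passed without any library but FD replicate 3, whose removal gave 13. Of 13 phosphodiesterases *Pde1b* (-1.38 ± 0.24, adjusted p = 0.0127) and *Pde2a* (-1.14 ± 0.25, adjusted p = 0.0398) were lower. *Pde1b* was lost without MLIV replicate 2, and *Pde2a* without any library but FD replicate 3. Of 14 nuclear noncoding RNAs *Snhg6* was lower (-2.38 ± 0.55, adjusted p = 0.0442), again lost without any library but FD replicate 3. Of 18 genes of glutamate and creatine handling, *Slc1a3* and *Gatm* were the only members to pass.

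Markers of other cells were read in the same libraries. Of 10 tested neutrophil markers 6 were higher in MLIV and 0 lower, with a median log2 fold change of 5.46, above that of every other list. Members near the floor in FD were tested only through their counts in MLIV, which by itself makes this median large. The count was 3 without MLIV replicate 3 and 3 with the replicate number as a block. With at least 10 counts asked of each library, which removes genes near the floor, 1 was higher. *S100a9*, a subunit of calprotectin, had 1.94, 1.63 and 1.28 CPM in FD, 53.8, 49.5 and 90.3 in MLIV and 3.38, 18.2 and 17.1 in WT (5.30 ± 0.33, adjusted p = 0.000113). *Lcn2*, which binds bacterial siderophores, had 0.250, 0.391 and 0.0672 CPM in FD and 13.4, 12.99 and 20.8 in MLIV (6.01 ± 0.64, adjusted p = 0.00120), and *Ltf*, lactoferrin, had 0, 0.457 and 0 and 21.5, 17.9 and 35.7 (7.31 ± 1.07, adjusted p = 0.00557, lost without MLIV replicate 3). The receptor gene *Csf3r* made up most of the marker sum at 635 to 710 CPM in FD and 553 to 657 in MLIV. The sum of the other 11 markers, taken after the values were seen, was 1.41 to 5.84 CPM in FD, 160 to 296 in MLIV and 26.9, 58.8 and 56.1 in WT. *Elane* had 0 counts in all 3 FD libraries and in MLIV replicate 1.

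Of 11 monocyte markers *Fn1* (2.47 ± 0.41, adjusted p = 0.00988) and *Ms4a4c* (2.65 ± 0.46, adjusted p = 0.0138) were higher (median of the list 2.34), with summed levels of 31.0 to 40.1 CPM in FD, 91.8 to 121 in MLIV and 36.7 to 68.0 in WT. *Fn1* was lost without MLIV replicate 1 and *Ms4a4c* without any of the MLIV libraries. Border macrophage markers summed to 694 to 897 CPM in FD and 603 to 619 in MLIV, and 1 of 12 passed, the lower *Stab1*. This gene made up most of the sum, at 567 to 636 CPM in FD and 321 to 413 in MLIV. The median log2 fold change of the list was 0.50, toward MLIV, so the lower sum does not describe the other markers. Of 6 endothelial and mural genes *Pecam1* was lower (-0.91 ± 0.19, adjusted p = 0.0278), lost without FD replicate 1 or any MLIV library. No tested oligodendrocyte (5), neuron (8) or lymphocyte (8) marker passed, and 0 erythroid genes had enough counts to be tested. The part of neutrophil or monocyte RNA in the lists above was not tested.

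Beside the genes already given, *Mmp8*, *Ifitm6*, *Diras2* and *1700030C10Rik* had at most 3 counts in each FD library and at least 30 in each MLIV library. Of these *Mmp8*, a neutrophil collagenase, passed the test (adjusted p = 0.0370), with a ratio of 77.3 (29.9 to 285), and was lost without any library but FD replicate 3. The other 3 had adjusted p of 0.0951, 0.137 and 0.0617. The counting intervals leave out the spread between libraries. With each mate counted separately, they are too narrow even for counting error.

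In its own comparisons with control, which share the mutant libraries with the test that chose the genes, MLIV against WT gave 0 of the 254 higher genes past an adjusted p of 0.05 with all 9 libraries (edgeR, 108 at an unadjusted p below 0.05) and 155 without the library labelled WT replicate 3. The median log2 fold change of the 254 in MLIV against WT was 0.72 and 1.26 in these fits, and in FD against WT it was -0.74 and -0.21. FD against WT passed for 20 of the 254 with 9 libraries and for 16 without the library labelled WT replicate 3, all lower in FD, and in the latter fit for 1 that was higher. For the 93 genes lower in MLIV, the median in FD against WT was 1.09 with 9 libraries and 0.90 without that library, with 21 and 20 genes past the test, and in MLIV against WT it was -0.53 and -0.70, with 0 and 10 genes past the test in that direction. Over all autosomal genes tested, MLIV against WT gave 0 of 14824 past edgeR's test with 9 libraries (683 at an unadjusted p below 0.05) and, without that library, 263 higher and 24 lower of 16835. FD against WT gave 26 higher and 24 lower with 9 libraries and 30 higher and 22 lower without it.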

How the data were processed

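RNA of sorted microglia was read in 3 libraries labelled FD, 3 labelled MLIV and 3 labelled WT. The authors made libraries with a stranded kit, aligned reads to mm10 with STAR 2.5.1 and deposited whole-number counts per gene, which per the file headers came from featureCounts 1.4.6-p3 in 1 command over 21 libraries with no option for strand or read pairs. Antisense and overlapping genes therefore cannot be told apart, and each mate was counted. The authors also deposited their own comparisons of each mutant with control (mean normalized signal, log2 fold change with error, score and p-value by DESeq2), which were not used. The number of per-sample columns not used was 0.

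From the counts, genes were kept by filterByExpr (13953, 13498 of them autosomal), scaled by TMM and fitted with 1 mean per mutant by the robust quasi-likelihood test of edgeR 4.0.16 (R 4.3.3, limma 3.58.1), adjusted over all genes. Errors (±) of log2 fold changes are standard errors. Scripts were tested on simulated data with 200 changed genes. Levels are CPM with TMM factors over 9 libraries, and positions use log2 CPM with a prior count of 2. Every pair of the 6 libraries differed by more than sampling noise (chi-square of at least 34.9 per gene).

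Genes named are the 12 with the smallest p in each direction among called genes without overlap, per list as many as 4 members past the test by ascending p, genes with at most 3 counts in each library of one mutant and at least 30 in each of the other, and *Mcoln1* and *Gla*. *Psme1*, *Psmb1* and *Psmb8* and further genes named for position or promoter windows were added with their values seen. The 39 lists hold 1058 symbols, of which 2 matched no gene (*Epb41l4aos* and *Rn7sk*). The genes, lists and rules were chosen with earlier results of these data known. 1 microglial marker is not reported here.

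Alternatives were RLE factors, library totals, no filter, at least 10 counts in each library, DESeq2 1.42.0, fits with WT, the replicate number as a block, autosomal genes only, no ribosomal genes, other thresholds and the removal of each library. MLIV replicate 1 alone against FD was chosen after seeing the data.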

Additional observations from a re-analysis of the deposited data

Results flagged for a closer look

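*Xist*, which lies on the X chromosome and so outside the autosomal comparison, was read at 1360 CPM in the lowest FD library and at 4.02 CPM or less in the WT libraries. It stands out because the FD samples are labelled with a male genotype and the control libraries lack the transcript.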

How the results depend on the processing

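The 347 called genes (254 higher and 93 lower in MLIV) became 663 (397 and 266) with DESeq2, 143 (86 and 57) with all 9 libraries in the fit, and 669 (464 and 205) with no fold threshold. Library totals gave 150 lower genes, no filter 170, and a stricter adjusted p (0.01, any fold) 52. MLIV replicate 1 alone against FD, chosen after seeing the data because this library lacks Y-linked counts as FD does, gave 96 (76 and 20), with its spread assumed to be like that of FD. Without each library in turn the count was 205 to 571 (163 to 413 higher, 42 to 158 lower). All 347 kept their direction wherever they were tested, which the lack of overlap between the mutants largely fixed in advance. Apart from the fit of MLIV replicate 1 alone, from 138 (9 libraries) to 346 (DESeq2) of them still passed. The causes were not tested.

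The position of the control was near FD, between and near MLIV in 70, 203 and 74 genes. Leaving out each WT library in turn gave 13 to 198 near FD, 95 to 229 between and 54 to 131 near MLIV.

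The replicate number as a block gave 338 called genes (252 and 86), and 309 of the 347 still passed. The shared deviation of same-numbered MLIV and FD libraries was 0.01, -0.06 and -0.08, within the -0.09 to 0.14 of the other pairs. With 3 libraries of each mutant these values cannot show whether the numbers pair the samples. Of the 104 named genes 0 reversed in any setting, but the mutants do not overlap in these genes, which left little room for a reversal. Over the settings, a named gene no longer passed the test in 260 cases and newly passed in 6, with most losses in the fit of 9 libraries (63) and with MLIV replicate 1 alone (61). Of 323 counts for lists with 3 or more members past the test, 113 moved by over 1.5 times. Genes with few counts and differences within the spread of 3 libraries were not detectable at this depth.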
